A study of Mus musculus with 8 samples.

Results

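The mitochondrially encoded genes were described in colon intestinal epithelial cells of mice with and without 1 altered Pim1 allele. The members were all genes whose deposited name begins with mt-, 37 of the 55487 listed genes. They comprised 13 mRNA genes, 2 rRNA genes and 22 tRNA genes, and all 37 lay on the mitochondrial chromosome in GENCODE release M21 on GRCm38. Membership follows from the gene name, with no measured value.

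RNA had been sequenced in 8 libraries of intestinal epithelial cells of the colon, the cell layer that lines the large bowel. Wild type (WT) mice gave 4 libraries and mice labelled PIM1+/-, heterozygous for the kinase gene Pim1, gave the other 4. Both groups were C57BL/6J. No treatment is named for either group. The animals' age, the structure of the altered allele and the number of animals behind the libraries, not given in the sources used here, remain unknown, so each p-value below covers only how far these libraries spread. Values were in TPM, a relative abundance of transcripts that corrects reads for the length of the gene and gives all libraries the same total. The listed genes summed to 990958 to 992187 TPM in each, and the depth behind the values is unknown because TPM does not retain it. Pim1 itself was 7.8 ± 1.46 TPM in WT and 6.67 ± 1.12 TPM in PIM1+/- (SD, n = 4 each), the genotypes overlapped, and limma's adjusted p was 0.411. Of 10 epithelial markers all were tested, and their summed TPM was 14670 to 15700 in WT and 16290 to 17270 in PIM1+/-.

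The mitochondrial genome is a small circle that is transcribed from both strands into long precursors, out of which the tRNAs are cut to release the mRNAs and rRNAs between them. Its mRNAs encode core subunits of respiratory chain complexes I, III and IV and of the ATP synthase, complex V, which are assembled together with many subunits encoded in the nucleus; complex II is wholly nuclear. Its rRNAs and tRNAs serve the mitochondrial ribosome. Colonocytes rely on this machinery to oxidise butyrate, a fatty acid made by gut bacteria.

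Of the 37 genes, 13 entered the test, which required that 4 or more of the 8 libraries reach 1 TPM: 10 mRNAs, both rRNAs and the tRNA gene mt-Tn. The other 24 did not. Of these, 21 tRNA genes (all annotated tRNA genes are 59 to 75 bases long) and the mRNA genes mt-Co2 and mt-Atp6 were listed at 0 in every library, and mt-Co3 was listed at 0.14 to 0.30 TPM. The listed zeros of the mRNA genes went with large values under near-identical nuclear sequences, described first because they decide what each value means.

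Pieces of mitochondrial DNA are inserted in the nuclear genome, and 16 annotated pseudogenes matched a mitochondrial transcript over 80% or more of their own length with an identity of 90% or higher. On chromosome 1, 7 of them lay side by side on the minus strand within chr1:24611535-24616197 (GRCm38). Of these, 6 had means of 6397 to 33448 TPM over all libraries, while the 9 copies elsewhere in the genome had a mean of at most 2.43 TPM, in Gm13340, a copy of mt-Co1 on chromosome 2. The 6 were Gm28661 (a copy of mt-Co2), Gm28437 (mt-Co3), Gm10925 (mt-Atp6), Gm10222 (mt-Nd4l), Gm28438 (mt-Nd3) and Gm29216 (the last 483 bases of mt-Co1). Gm28439, identical to the first 876 bases of mt-Nd4, was listed at 0 in every library.

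The sequences show how little separates a gene from its copy. Gm28661 was identical to mt-Co2 over 681 of its 684 bases. In the ends of both, capitals mark the 3 bases of mt-Co2 that lie past the end of the annotated copy (mt-Co2 chrM:7637-7696, plus strand, and Gm28661 chr1:24614885-24614941, minus strand; GRCm38, GENCODE M21 transcripts).
mt-Co2 end: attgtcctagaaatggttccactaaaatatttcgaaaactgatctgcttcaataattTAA
Gm28661 end: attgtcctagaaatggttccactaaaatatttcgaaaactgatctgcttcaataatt
Gm28438 differed from mt-Nd3 by the single substitution T3C over 345 bases, counted from 1 at the first base of the mitochondrial transcript, with the mitochondrial base first; it is the capital in the opening bases of each (mt-Nd3 chrM:9459-9481, plus strand, and Gm28438 chr1:24613097-24613119, minus strand).
mt-Nd3 start: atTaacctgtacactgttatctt
Gm28438 start: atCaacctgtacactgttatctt
Gm29216 differed from mt-Co1 by A1066T, the capital in each window (mt-Co1 chrM:6373-6413, plus strand, and Gm29216 chr1:24616165-24616197, minus strand), and its bases before position 10 lay outside the match.
mt-Co1 window: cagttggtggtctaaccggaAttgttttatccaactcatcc
Gm29216 start: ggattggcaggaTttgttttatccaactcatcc
The other 3 copies also had 100% identity: Gm28437 over 783 of the 784 bases of mt-Co3, Gm10925 over 678 of the 681 bases of mt-Atp6 and Gm10222 over 294 of the 297 bases of mt-Nd4l.

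The shortest mRNA gene and the 1 tRNA gene with values are shown whole, since how such short genes were quantified is unknown. Mt-Atp8, at chrM:7766-7969 on the plus strand, is 204 bases long and shares its last 43 bases with the start of mt-Atp6, shown in capitals. Mt-Tn, the tRNA for asparagine, at chrM:5089-5159 on the minus strand, is 71 bases long, and its capitals mark the GTT anticodon triplet.
mt-Atp8: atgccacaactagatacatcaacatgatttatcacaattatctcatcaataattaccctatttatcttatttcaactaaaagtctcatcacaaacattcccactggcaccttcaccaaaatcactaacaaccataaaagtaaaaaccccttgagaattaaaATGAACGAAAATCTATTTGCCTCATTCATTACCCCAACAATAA
mt-Tn: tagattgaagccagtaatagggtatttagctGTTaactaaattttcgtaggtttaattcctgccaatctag

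The reads of an identical stretch cannot be assigned to the mitochondrial gene or the copy from their sequence. As listed, the copy held 91.5% of the TPM of mt-Nd4l and Gm10222 together in WT, 87.0% of that of mt-Nd3 and Gm28438, and 20.7% of that of mt-Co1 and Gm29216. It held 100% for mt-Co2 and mt-Atp6. The shares in PIM1+/- were 91.7%, 86.8% and 20.97% for the first 3 pairs. For that reason each gene below that has such a copy is given both as listed and with its copies added, and the listed values of mt-Co1, mt-Nd3 and mt-Nd4l are uncertain.

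**Figure D1:**
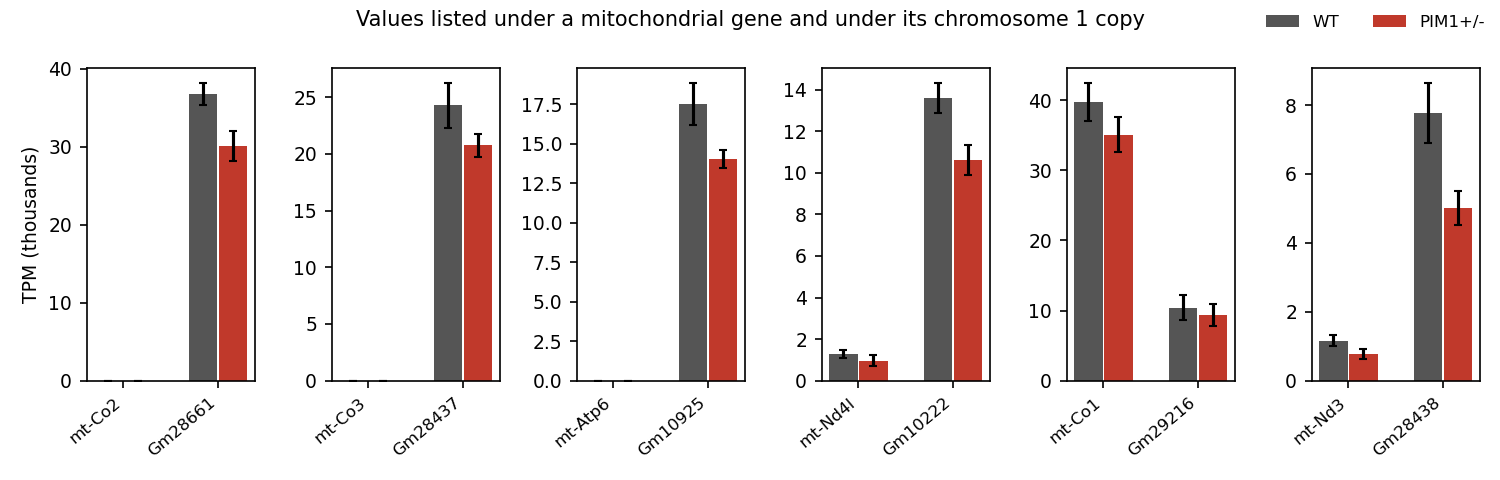
Mean TPM (bars, SD over n = 4 libraries per genotype; each panel has its own axis from 0) listed under 6 mitochondrial genes and under the copy of each on chromosome 1. Almost all TPM of mt-Co2, mt-Co3 and mt-Atp6 stood under the copies, and every copy's mean was lower in PIM1+/- than in WT, with Gm29216 the copy whose genotypes overlapped.

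Mitochondrially encoded transcripts were lower in PIM1+/- than in WT. Of the 13 tested members, 10 fell and 0 rose by limma at an adjusted p under 0.05, against 8.54% of all 12760 tested genes that fell and 8.93% that rose. In 11 of the 13 every PIM1+/- library lay below every WT library, a pattern seen in 11.6% of all tested genes. Log2 fold changes (PIM1+/- over WT, on the log2(TPM + 1) scale) of the 13 ran from -0.74 to -0.18 with a median of -0.42, beside -0.01 over all tested genes. The members that fell were 6 of the 7 complex I mRNAs, mt-Cytb, mt-Atp8, mt-Rnr2 and mt-Tn. The members that did not pass were mt-Co1, mt-Nd4l and mt-Rnr1. At an unadjusted p under 0.05 limma had 13 lower and 0 higher, beside 16.1% lower and 16.3% higher among all tested genes.

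**Figure D2:**
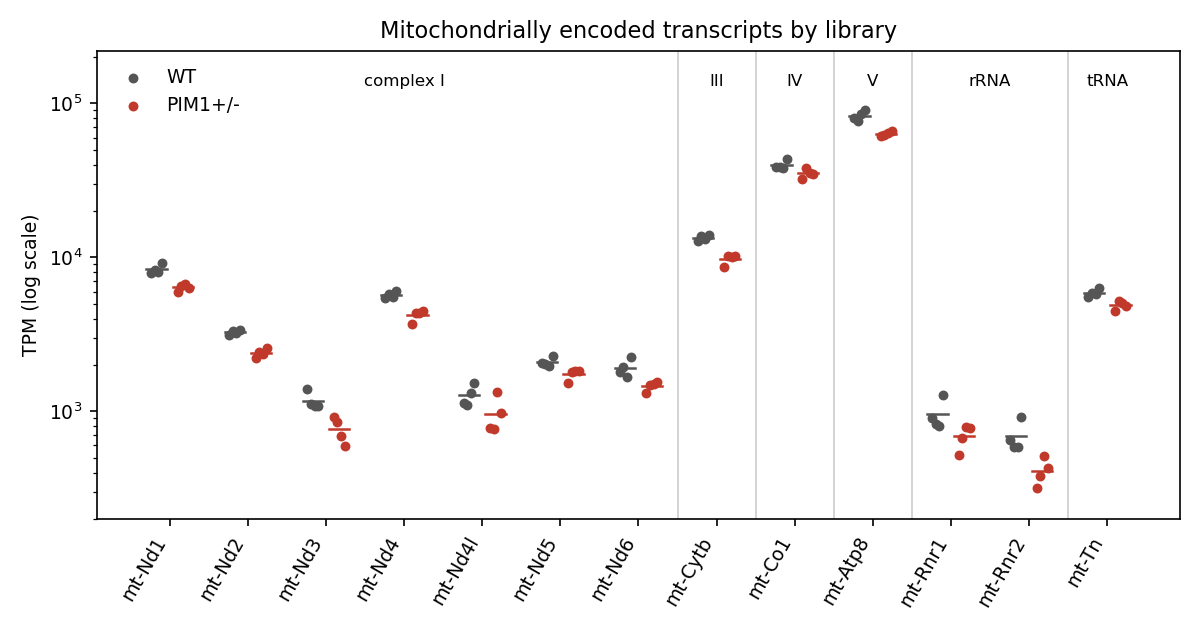
TPM of the 13 tested mitochondrial transcripts in each library (points; log axis; horizontal lines are genotype means), grouped by respiratory chain complex or RNA class. In 11 of the 13 all PIM1+/- points lie below all WT points, and mt-Co1 and mt-Nd4l overlap.

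Complex I, the NADH dehydrogenase that feeds electrons into the chain, has 7 mitochondrial subunits that form its membrane arm. Mt-Nd2, one of its proton-pumping subunits, was 3132, 3299.8, 3238 and 3383 TPM in WT, and 2203, 2435, 2355 and 2595 TPM in PIM1+/-, in the order of the replicate numbers 1 to 4 here and below. The lowest WT library stood above the highest PIM1+/- library. Its log2 fold change was -0.45 ± 0.06 (SE; limma adjusted p = 0.00153). Mt-Nd4, another pump subunit, was 5443, 5767, 5530.4 and 6068 TPM in WT and 3672, 4357, 4327 and 4506 TPM in PIM1+/-, with PIM1+/- replicate 1 the lowest and no overlap. Its log2 fold change was -0.44 ± 0.07 (limma adjusted p = 0.00457). Mt-Nd4 shares its first 7 bases with the end of mt-Nd4l.

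Mt-Nd1, the subunit at the joint between the membrane arm and the peripheral arm, was 7947, 8233, 8027 and 9167 TPM in WT and 5981, 6549.7, 6676 and 6355 TPM in PIM1+/-. It was the most abundant complex I mRNA as listed, and its genotypes did not overlap. It fell by 0.38 ± 0.06 on the log2 scale (limma adjusted p = 0.00461). Mt-Nd5, the subunit at the far end of the membrane arm, was 2069.8, 2038, 1956 and 2284 TPM in WT and 1526, 1786, 1839 and 1815 TPM in PIM1+/-. Its genotypes did not overlap, and PIM1+/- replicate 1 stood below the other 3. The log2 fold change of -0.26 ± 0.07 was among the smallest that passed (limma adjusted p = 0.0390), and the call was lost when any single library other than WT replicate 3 was left out (adjusted p = 0.0503 to 0.0919).

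Mt-Nd6 is the only mRNA gene annotated on the minus strand, at chrM:13552-14070, and it overlaps the end of mt-Nd5 by 14 bases in the opposite direction. With the strand setting of the counting not given in the sources used here, reads from that overlap cannot be told apart. It was 1788, 1941, 1659 and 2239 TPM in WT and 1318, 1482, 1499 and 1543 TPM in PIM1+/-. The genotypes did not overlap, and WT spread more widely, led by replicate 4. It fell by 0.38 ± 0.09 on the log2 scale (limma adjusted p = 0.0233), and without PIM1+/- replicate 1 the adjusted p was 0.0568.

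Mt-Nd3, a small complex I subunit, was 1386, 1123, 1077 and 1075 TPM in WT and 919.8, 849, 691 and 592 TPM in PIM1+/- as listed. WT replicate 1 was the highest, and the genotypes did not overlap. Its log2 fold change was -0.62 ± 0.14 as listed (limma adjusted p = 0.0166). With the copy Gm28438 added it was 9009, 7943, 8809 and 10017 TPM in WT and 5394, 6383, 5449 and 5884 TPM in PIM1+/-, and the log2 fold change was -0.63 ± 0.08 (limma adjusted p = 0.00154). Both scales thus placed it at the lower end of the complex I mRNAs, with the smaller SE once the copy was added.

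Mt-Nd4l, the other small subunit, was 1136, 1091, 1311 and 1533 TPM in WT and 777, 762, 1340.4 and 973 TPM in PIM1+/- as listed. PIM1+/- replicate 3 stood inside the WT range, and the log2 fold change of -0.42 ± 0.18 did not pass (limma adjusted p = 0.1402, and 0.0235 without that library). With Gm10222 added it was 15611, 13785, 14946 and 15193 TPM in WT and 10501, 12215, 11942 and 11638 TPM in PIM1+/-. The genotypes then did not overlap, and the log2 fold change was -0.36 ± 0.07 (limma adjusted p = 0.00728).

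Complex III, which passes electrons from ubiquinol to cytochrome c, has a single mitochondrial subunit, cytochrome b. Mt-Cytb was 12746, 13692, 13198 and 13975 TPM in WT and 8650.4, 10146, 10076 and 10219.6 TPM in PIM1+/-. The 4 WT libraries lay close together, and PIM1+/- replicate 1 stood below the other PIM1+/- libraries. The mean was 0.729 times that of WT, and the log2 fold change was -0.46 ± 0.07 (limma adjusted p = 0.00300).

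Complex IV, cytochrome c oxidase, reduces oxygen with 3 mitochondrial core subunits. Mt-Co1, which carries the catalytic haem, was 38689, 38713, 38039.5 and 43865 TPM in WT and 32347, 38329.8, 35130.3 and 34664 TPM in PIM1+/-. PIM1+/- replicate 2 reached the WT range, and WT replicate 4 stood well above the other WT libraries. The log2 fold change of -0.18 ± 0.08, the smallest of the tested members, did not pass (limma adjusted p = 0.137, and 0.181 at -0.18 ± 0.09 with the copies added).

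The transcripts of the other complex IV subunits were seen only through the copies. Mt-Co2, the subunit that accepts electrons from cytochrome c, had, as Gm28661, 36010.4, 36649, 35599.8 and 38863 TPM in WT and 28044, 32375, 30989 and 29052 TPM in PIM1+/-. These values did not overlap, and the log2 fold change of Gm28661 was -0.29 ± 0.07 (limma adjusted p = 0.0199, and 0.05003 without WT replicate 4, just past the threshold). Mt-Co3, a structural core subunit, had, as Gm28437, 23857, 23131, 22875 and 27245 TPM in WT and 19360.2, 21720.3, 21207 and 20746 TPM in PIM1+/-. The genotypes did not overlap, with WT replicate 4 the highest, but the log2 fold change of Gm28437, -0.22 ± 0.07, did not pass (limma adjusted p = 0.0668).

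Complex V makes ATP from the proton gradient, and its mitochondrial subunits lie in the membrane part. Mt-Atp8 was 80731, 76489, 85589 and 90118 TPM in WT and 61431, 62742, 63998 and 66205 TPM in PIM1+/-. The PIM1+/- libraries lay within a narrow band below all WT libraries. Its log2 fold change was -0.39 ± 0.07 (limma adjusted p = 0.00849). Mt-Atp6, the subunit of the proton channel, had, as Gm10925, 16233, 17167, 17435 and 19397 TPM in WT and 13372, 14725, 14311 and 13771 TPM in PIM1+/-. The groups did not overlap, and the log2 fold change of Gm10925 was -0.32 ± 0.07 (limma adjusted p = 0.0137).

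Mt-Atp8 alone made up 49.6% ± 1.394 of all mitochondrial TPM in WT and 48.1% ± 1.43 in PIM1+/- (SD, n = 4 each). Mt-Atp8 is the shortest mRNA gene, and how so short a gene was quantified is unknown. Its WT mean was 83232 TPM, beside 17558 TPM for mt-Atp6 with its copy, a gene it overlaps by 43 bases. The reason for that gap was not tested, and the length-weighted shares below start from the same TPM. With each TPM multiplied by annotated length and expressed as a share over the mitochondrial mRNAs and copies, mt-Atp8 held 9.11% in WT and mt-Co1 held 33.0%. On that length-weighted scale the share of mt-Co1 was 33.2, 32.7, 32.6 and 33.5% in WT and 35.4, 36.4, 34.9 and 35.1% in PIM1+/-, without overlap. The length-weighted share of mt-Cytb was 8.23% ± 0.295 in WT and 7.30% ± 0.286 in PIM1+/-, also without overlap. That of mt-Nd5 overlapped, at 2.04% ± 0.05004 and 2.07% ± 0.101.

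The ribosomal RNAs were low relative to the mRNAs per length. Mt-Rnr1, the RNA of the small mitochondrial ribosomal subunit (chrM:70-1024), was 909, 829.7, 801 and 1273 TPM in WT and 521, 674, 785 and 782 TPM in PIM1+/-. The genotypes did not overlap, but WT replicate 4 lay far above the rest, and the log2 fold change of -0.46 ± 0.17 did not pass (limma adjusted p = 0.0955). Mt-Rnr2, the RNA of the large subunit (chrM:1094-2675), was 651, 587, 584 and 919 TPM in WT and 318, 379, 512 and 428 TPM in PIM1+/-. All PIM1+/- libraries stood below all WT libraries. Its log2 fold change of -0.74 ± 0.17 was the lowest of the 13 tested members (limma adjusted p = 0.0196, and 0.0506 without PIM1+/- replicate 2).

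The ratio of mt-Rnr1 to mt-Rnr2, neighbours in the same precursor, differed between the genotypes in every library. It was 1.40, 1.41, 1.37 and 1.385 in WT and 1.64, 1.78, 1.53 and 1.83 in PIM1+/-. The WT ratios lay within a narrow range and the PIM1+/- ratios were all higher. The rRNA TPM per 100 mRNA TPM overlapped, at 1.02 ± 0.173 in WT and 0.867 ± 0.135 in PIM1+/-. Whether the libraries were selected for polyadenylated RNA or depleted of ribosomal RNA is unknown: not given in the sources used here. A part of either step in these ratios was not tested.

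Mt-Tn was the only tRNA gene with values above 0, at 5553, 5846, 5802 and 6348 TPM in WT and 4512, 5214, 5019.9 and 4842 TPM in PIM1+/-. The genotypes did not overlap. Its log2 fold change was -0.27 ± 0.06 (limma adjusted p = 0.0212, and 0.0525 without WT replicate 4). How so short a gene was quantified is unknown, and its level is not compared with that of the mRNAs.

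**Figure D3:**
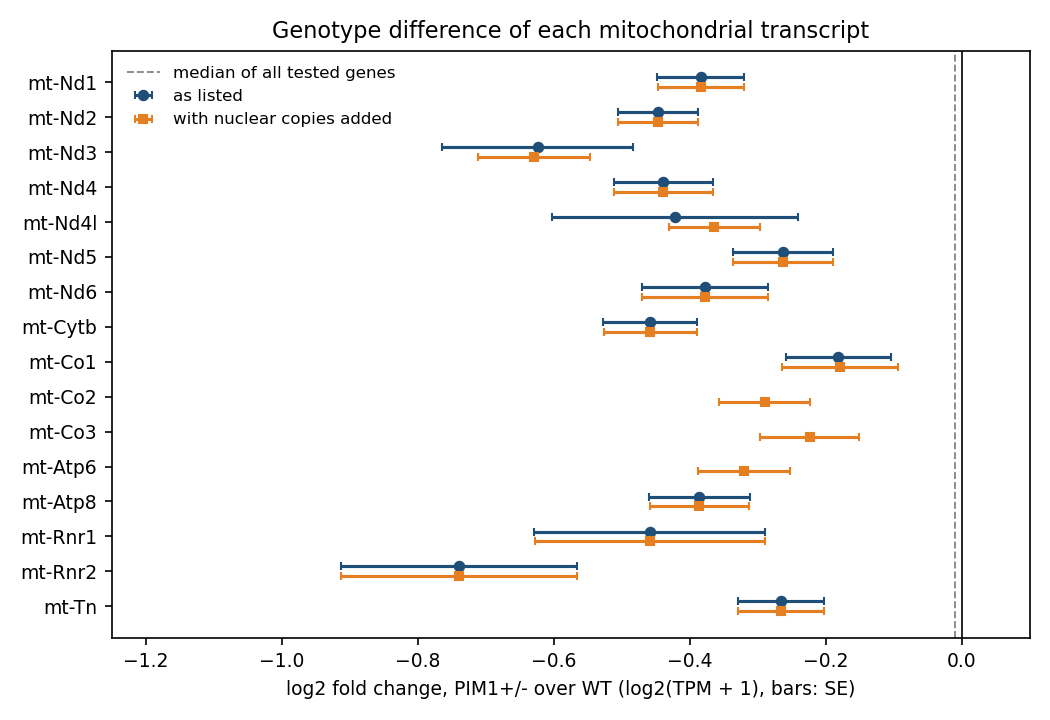
Log2 fold change (PIM1+/- over WT, log2(TPM + 1) scale, bars are SE) of each mitochondrial transcript as listed (circles) and with its nuclear copies added (squares); the dashed line is the median of all tested genes. All points lie below that line, from -0.74 for mt-Rnr2 to -0.18 for mt-Co1.

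With the copies added to their genes, 16 members were tested, 13 of them mRNAs. Limma called 13 lower, beside 8.54% of all genes tested in that fit. In 15 the PIM1+/- libraries all lay below the WT libraries, beside 11.6% of all genes, and the median log2 fold change was -0.38. Mt-Co2 and mt-Atp6 then entered the members that fell (adjusted p = 0.0185 and 0.0129), mt-Co3 missed the threshold (adjusted p = 0.0642), and mt-Co1 was the member that overlapped.

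Summed over all 37 genes, mitochondrial transcripts made up 16.4, 16.1, 16.8 and 18.4% of the listed TPM in WT and 12.5, 13.7, 13.5 and 13.7% in PIM1+/-. The genotypes did not overlap, and the difference of the means was -3.56 percentage points. With the copies the share was 28.1% ± 1.56 in WT and 22.4% ± 1.11 in PIM1+/-. Without mt-Atp8, which holds so much of the sum, the share of the other members was 8.52% ± 0.517 and 6.94% ± 0.437, again without overlap.

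By class, the summed TPM in PIM1+/- was 0.755 times that in WT for complex I, 0.729 times for complex III, 0.764 times for complex V, 0.671 times for the rRNAs and 0.832 times for the tRNAs, each without overlap. For complex IV the ratio was 0.882 and the genotypes overlapped, a sum that as listed is almost all mt-Co1. As listed, the complex V sum was mt-Atp8 alone and the tRNA sum was mt-Tn alone. With the copies added the ratios were 0.744 for complex I, 0.856 for complex IV and 0.770 for complex V. Differences between the classes were not tested.

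**Figure D4:**
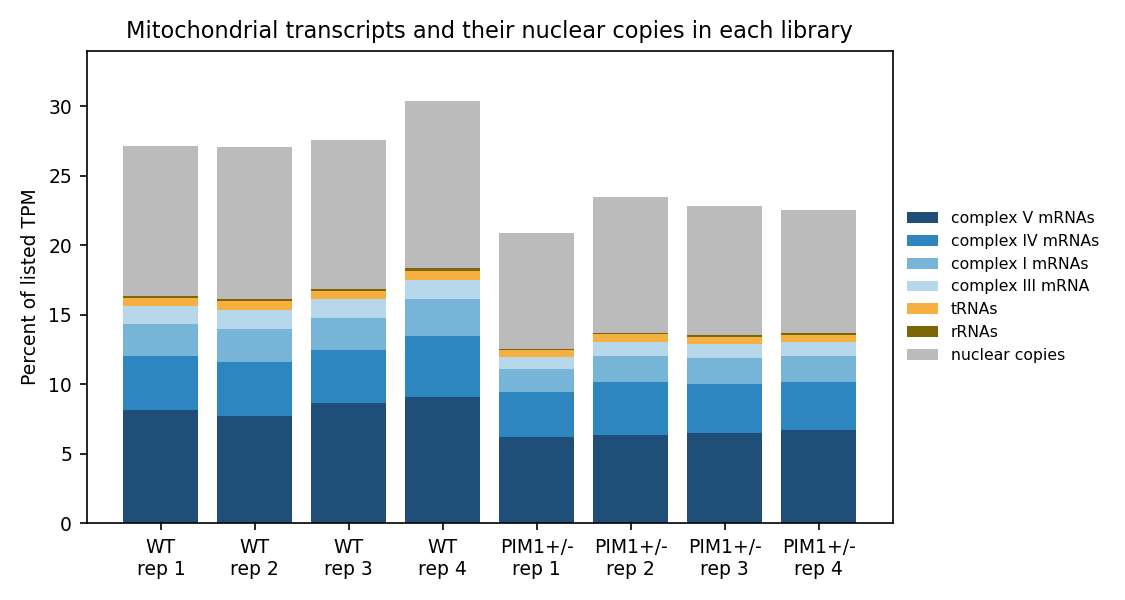
Share of the listed TPM (percent, stacked bars) taken by each class of mitochondrial transcript and by the nuclear copies in each of the 8 libraries. The 4 PIM1+/- bars, at 20.9 to 23.5%, are all shorter than the 4 WT bars, at 27.1 to 30.4%.

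The libraries did not spread evenly. WT replicate 4 was the highest WT library for 12 of the 13 tested members, mt-Nd3 being the exception, and PIM1+/- replicate 1 was the lowest PIM1+/- library for 11 of the 13. Without WT replicate 4 limma called 8 members lower with a median of -0.34, beside 5.40% of all tested genes. Without PIM1+/- replicate 1 it called 8 with a median of -0.35, beside 6.11%. All 13 log2 fold changes were below 0 whichever library was left out. Mt-Nd1, mt-Nd2, mt-Nd3, mt-Nd4, mt-Cytb and mt-Atp8 passed in all 8 such fits.

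Because TPM has a fixed sum, a lower mitochondrial share raises every other value, and higher nuclear values equally lower the mitochondrial share. TPM cannot tell these apart. The genes that are neither mitochondrial nor copies held 7.83% more TPM in PIM1+/-. The members were therefore also compared on other scales. With each library rescaled to the sum of those nuclear genes, all tested genes had a median log2 fold change of -0.11 in place of -0.01, and the mitochondrial genes one of -0.53 in place of -0.42. Limma then called 11 of 13 lower, mt-Co1 among them at -0.29 ± 0.09 (adjusted p = 0.0472), beside 17.5% of all tested genes.

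Rescaled to the sum of the 13 mitochondrial mRNAs instead, which asks how the members stood among themselves, all genes moved to a median of 0.30 and the 13 tested members to -0.08. On that scale mt-Rnr2 was the 1 member called, at -0.40 ± 0.14 (limma adjusted p = 0.0395). Of all tested genes 2.88% were called lower and 47.8% higher. Mt-Co1, mt-Nd5 and mt-Tn turned to positive log2 values of 0.16, 0.08 and 0.07, none of which passed (limma adjusted p = 0.0707, 0.324 and 0.316). No mRNA was called on that scale in either direction, and mt-Co1 had the smallest p of those with a positive value. The divisor is the sum of these same mRNAs as listed, so values near 0 are partly set by the scaling. In WT mt-Atp8 and mt-Co1 had means of 83232 and 39827 TPM in a sum of 160197 TPM.

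The nuclear-encoded subunits of the same complexes were set beside them. Of 77 such genes, all of which were tested, 26 rose and 1 fell in PIM1+/- by limma, against 8.93% of all tested genes that rose, with a median log2 fold change of 0.15. In 36 of the 77 all PIM1+/- libraries lay above all WT libraries, a pattern seen in 11.9% of all tested genes. Their summed TPM was 39452, 39569, 38369.5 and 37261 in WT and 41338, 42141, 42357 and 42958 in PIM1+/-, without overlap. Mitochondrial TPM per nuclear respiratory chain TPM was 4.35 ± 0.387 in WT and 3.14 ± 0.0931 in PIM1+/-, a ratio that does not depend on the scaling of a library.

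This rise was smaller on the scale of the nuclear sum, where limma called 8 of the 77 higher and 2 lower with a median of 0.04, beside 5.73% higher, 17.5% lower and a median of -0.11 over all genes. With upper quartile scaling it called 11 higher and 1 lower, beside 7.26% and 11.9% of all genes. The count of 26 was 12 without the variance trend in limma and 16 without a filter on low values, fits in which 7.63% and 2.89% of all genes were called higher. It was 14 when WT replicate 3 was left out and 13 when WT replicate 4 was. It was 16, 14 and 14 when PIM1+/- replicate 2, 3 or 4 was left out. In those 5 fits 5.85 to 7.86% of all genes were called higher.

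**Figure D5:**
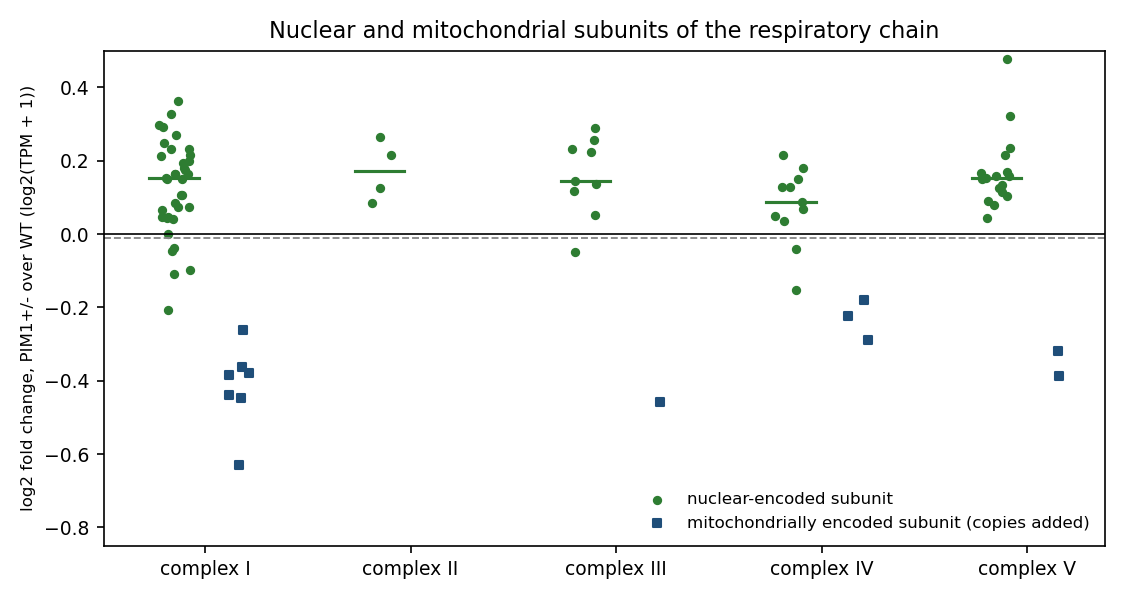
Log2 fold change (PIM1+/- over WT, log2(TPM + 1) scale) of each nuclear-encoded subunit (circles, with the median as a line) and each mitochondrially encoded subunit with its copies added (squares) by respiratory chain complex; the dashed line is the median of all tested genes. Nuclear medians lie between 0.09 and 0.17, and all mitochondrial subunits lie below 0.

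In nuclear complex I, 11 of 36 rose and 1 fell, with a median of 0.15. Ndufa11, an accessory subunit of the membrane arm, was 301.6 ± 9.90 TPM in WT and 370.7 ± 12.8 TPM in PIM1+/-, a log2 fold change of 0.30 ± 0.05 (limma adjusted p = 0.00321). Ndufs8, which carries iron-sulphur clusters, was 191 ± 12.5 and 246 ± 8.29 TPM, 0.36 ± 0.06 on the log2 scale (limma adjusted p = 0.00332). Ndufa10 and Ndufb7, other accessory subunits, also rose, by 0.27 ± 0.05 and 0.25 ± 0.04. Ndufa6, an accessory subunit named after its value was seen, fell by 0.21 ± 0.06 (limma adjusted p = 0.0356). With single libraries left out, limma called 0 of the 77 subunits lower, except 1 without PIM1+/- replicate 2. Of all tested genes 4.83 to 8.26% were called lower in these fits.

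In complex III 5 of 9 nuclear subunits rose, with a median of 0.14. They included Uqcrq, a small structural subunit, at 455 ± 24.8 TPM in WT and 556 ± 10.6 TPM in PIM1+/- (0.29 ± 0.05 on the log2 scale; limma adjusted p = 0.00509), and Cyc1, cytochrome c1, at 0.26 ± 0.05 (limma adjusted p = 0.00732). In complex IV 2 of 11 rose, with a median of 0.09: Cox5a at 0.18 ± 0.04 and Cox6a1 at 0.22 ± 0.06 on the log2 scale. In complex V 6 of 17 rose, with a median of 0.15, led by Atp5g1, which encodes subunit c of the rotor ring, at 641 ± 44.2 TPM in WT and 799.8 ± 27.3 TPM in PIM1+/- (0.32 ± 0.06; limma adjusted p = 0.00644). Complex II, which has no mitochondrial subunit, had 2 of 4 higher, Sdhc and Sdhb, at 0.26 ± 0.05 and 0.22 ± 0.05. Cox6a1 passed in 1 and Sdhb in 4 of the 8 fits with a library left out.

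The listed nuclear genes that copy, transcribe, process and translate the mitochondrial genome held few calls. None of the lists was of mitochondrial ribosomal proteins. Of 99 tested genes in 7 lists, 4 rose and 6 fell by limma, beside 8.93% of all tested genes that rose and 8.54% that fell, and the median log2 fold change was -0.003. Neither share was above that of all genes, so the calls below are given as values of single genes. No member of the lists for maintenance of mitochondrial DNA (13 tested), mitochondrial transcription (7) or RNA modification (16) was called. At an unadjusted p under 0.05, limma had 0 in either direction in the first and second lists, and 2 higher and 1 lower of 16 in the third, beside 16.3% and 16.1% of all tested genes. The members with the smallest p in these lists were the exonuclease Mgme1, at -0.19 ± 0.08, the transcription initiation factor Tfb2m, at -0.16 ± 0.09, and the pseudouridine synthase Pus1, at 0.27 ± 0.08 (limma adjusted p = 0.159, 0.267 and 0.0521).

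Both components of the mitochondrial RNA degradosome rose, the helicase Supv3l1 from 16.2 ± 0.414 to 19.7 ± 1.08 TPM and the exoribonuclease Pnpt1 from 20.02 ± 3.36 to 28.2 ± 4.05 TPM (0.26 ± 0.06 and 0.48 ± 0.14 on the log2 scale; limma adjusted p = 0.0208 and 0.0411). Fastkd1, of a family of mitochondrial RNA-binding proteins, fell from 17.9 ± 0.915 to 14.8 ± 0.853 TPM (limma adjusted p = 0.0342). Of 20 genes for charging tRNAs, most of them aminoacyl-tRNA synthetases, Lars2, for leucine, rose by 0.27 ± 0.06 on the log2 scale (limma adjusted p = 0.0174). Hars2, for histidine, fell by 0.27 ± 0.07 on that scale (limma adjusted p = 0.0214). Of 13 translation factors, Tufm, the elongation factor that delivers charged tRNAs, rose from 121 ± 4.77 to 140.3 ± 7.81 TPM and Guf1, a ribosome back-translocase, fell from 16.5 ± 0.538 to 13.6 ± 0.950 TPM (limma adjusted p = 0.0274 and 0.0328).

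Of 9 tested regulators of mitochondrial biogenesis 3 fell and 0 rose by limma, beside 8.54% and 8.93% of all tested genes. At an unadjusted p under 0.05 the counts were 4 and 0, beside 16.1% and 16.3%. Ppargc1a, the coactivator PGC-1 alpha, was 14.6 ± 1.95 TPM in WT and 9.82 ± 2.08 TPM in PIM1+/- (-0.54 ± 0.16; limma adjusted p = 0.0431). Esrrg, an oestrogen-related nuclear receptor, was 3.35 ± 0.431 and 2.23 ± 0.262 TPM (-0.43 ± 0.11; limma adjusted p = 0.0331), and Yy1, a broadly acting zinc finger factor, was 21.3 ± 0.764 and 16.8 ± 2.12 TPM (-0.33 ± 0.09; limma adjusted p = 0.0305). Calls in these lists rested on small margins: with single libraries left out, Ppargc1a, Esrrg, Yy1, Pnpt1, Fastkd1 and Guf1 each passed in 2 of 8 fits, Tufm in 3, Supv3l1 in 5, Hars2 in 6 and Lars2 in all 8. On the scale of the nuclear sum none of the 99 rose and 14 fell, beside 17.5% of all tested genes that fell on that scale.

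Markers of some other cell types were higher in PIM1+/-. Of 59 genes that mark T and NK, myeloid, B and plasma, fibroblast, smooth muscle, endothelial and red blood cells, 21 were tested, 11 rose and 0 fell by limma, beside 8.93% and 8.54% of all tested genes. At an unadjusted p under 0.05 the counts were 16 and 0, beside 16.3% and 16.1%. The calls were 7 of 10 tested T and NK cell markers, 2 of 2 myeloid markers and 2 of 3 red blood cell markers. Of 10 listed myeloid markers only those 2 entered the test. Some markers met the filter through the PIM1+/- libraries alone. Mcpt1, a myeloid marker, was 0.17 to 0.93 TPM in WT and 4.79 to 8.11 TPM in PIM1+/-. Cd8a was 0.4 to 0.75 and 1.2 to 4.27 TPM. Such markers enter the test only if high in PIM1+/-, so the counts lean towards higher calls. None of the tested B and plasma cell (2), fibroblast (1), smooth muscle (1) or endothelial (2) markers was called. The 59 markers of all these cell types together summed to 48.5 to 83.0 TPM in WT and 119 to 188 TPM in PIM1+/-, without overlap. S100a9, Lum and Emcn were listed at 0 in every library. The sum of T and NK cell markers was 10.7 to 25.1 TPM in WT and 42.4 to 105 TPM in PIM1+/-. Mitochondrial transcripts summed to a mean of 167723 TPM in WT and 132413 TPM in PIM1+/-. The 2 kinds of sum cannot be weighed against each other, since marker TPM does not give the share of RNA from those cells. The part of the other cells in the mitochondrial difference was not tested, and in bulk RNA fewer cells of a type and less RNA per cell cannot be told apart.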

How the data were processed

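The authors deposited a single table of TPM per gene, quantified with RSEM per the series' design text. HISAT2, StringTie, edgeR and the build GRCm38.p6 stand in the submitters' processing notes, without roles or versions. Annotation, strand setting and depth: not given in the sources used here. Every per-sample column was used (0 left out) and matched to its library by genotype and replicate number.

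Log2(TPM + 1) of the 12760 genes that reached 1 TPM in 4 or more of the 8 libraries was tested on genotype with limma 3.58.1 in R 4.3.3 (mean-variance trend, two-sided, 9.27 degrees of freedom), with Benjamini-Hochberg adjustment over all of them and a threshold of 0.05. Sums and ratios carry no test. Nuclear copies were found with BLAST+ 2.17.0 against GENCODE release M21 transcripts, from which coordinates and sequences were taken. Figures were drawn with matplotlib 3.10.9.

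The members follow from gene names alone, but this group of genes, the gene lists and the tests were chosen with earlier results of these data known. All mitochondrial genes could be named, with copies of at least 1 TPM and, of each nuclear list, up to 4 called genes of smallest p or else the 1 gene of smallest p. Alternatives changed the variance trend, pseudocount, filter, scaling, block, copies and libraries. Rescaling to the sum of mitochondrial mRNAs and copies was chosen after seeing the data.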

Additional observations from a re-analysis of the deposited data

Results flagged for a closer look

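In a search of 124 groups of 4 libraries, 15 held 1 library whose distance from its nearest neighbour exceeded Dixon's bound for 4 values as a share of the group's range. Chance gives about 1 in 20 groups.

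Among the mitochondrial genes, WT replicate 4 held 43865 TPM of mt-Co1 where the other WT libraries held 38039.5 to 38713. WT replicate 1 held 1386 TPM of mt-Nd3 beside 1075 to 1123. PIM1+/- replicate 1 held 1526 TPM of mt-Nd5 beside 1786 to 1839 in the other PIM1+/- libraries, and 8650.4 TPM of mt-Cytb beside 10076 to 10219.6. PIM1+/- replicate 3 held 0.14 TPM of mt-Co3 beside 0.29 to 0.30, a gene with almost all its values under a nuclear copy.

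The same libraries stood apart in the sums, which share these genes. In PIM1+/- replicate 1 the complex III mRNA took 0.873% of the listed TPM beside 1.02 to 1.03%, the mitochondrial mRNAs 11.99% beside 12.9 to 13.1%, and all mitochondrial genes 12.5% beside 13.5 to 13.7%. In WT replicate 4 the complex IV mRNAs took 4.42% beside 3.84 to 3.90%, mitochondrial genes with copies 30.4% beside 27.1 to 27.6%, and the nuclear genes without copies 69.6% beside 72.4 to 72.9%.

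Among the nuclear genes named, WT replicate 3 held 22.5 TPM of Tfb2m beside 18.3 to 18.9. PIM1+/- replicate 1 held 152 TPM of Tufm beside 135 to 137. PIM1+/- replicate 4 held 2.62 TPM of Esrrg beside 2.07 to 2.14, and 259 TPM of Ndufs8 beside 240.5 to 243.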

How the results depend on the processing

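No mitochondrial gene was called higher by limma under any alternative. Limma called 8 to 10 lower with single libraries left out, beside 4.83 to 8.26% of all tested genes. Of all genes tested, 2.49% were called lower without a filter on low values, where the count of 10 was 2. The count was 1 when rescaled to the sum of the mitochondrial mRNAs, or of these and their copies, beside 2.88 and 2.89%. On those 2 scales these log2 fold changes turned positive (first and second scale): mt-Tn 0.0747 and 0.0571, mt-Co1 0.159 and 0.141, mt-Nd5 0.0780 and 0.0605, Gm28661 0.0509 and 0.0333, Gm28437 0.117 and 0.0995, Gm10925 0.0207 and 0.00311, Gm29216 0.179 and 0.161, Mgme1 0.102 and 0.0869, Tfb2m 0.168 and 0.151, Fastkd1 0.0678 and 0.0513, Hars2 0.0516 and 0.0348, and Guf1 0.0608 and 0.0443. Both divide by a sum that is itself lower in PIM1+/-, and the median of all genes moved to 0.30 and 0.28.

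By the same limma test as deposited, 30 of the 176 nuclear partner genes tested were called higher and 7 lower. Of all tested genes 8.93% were called higher and 8.54% lower. The higher count was 14 without the trend, 19 without a filter, 15 with upper quartile scaling and 8 on the nuclear sum. In those fits 7.63, 2.89, 7.26 and 5.73% of all tested genes were called higher. On the 2 mitochondrial sums the higher count was 116 and 110, beside 6103 and 5503 of all 12760 tested genes. The lower count was 2 without a filter, 16 on the nuclear sum, and 0 on both mitochondrial sums. In those fits 2.49, 17.5, 2.88 and 2.89% of all tested genes were called lower. With single libraries left out the counts ran from 15 to 29 higher and from 0 to 6 lower. Over all tested genes 5.85 to 7.87% were then called higher and 4.83 to 8.26% lower. The cause of these shifts was not tested. As a percentage of the nuclear sum, mitochondrial TPM differed by -6.32 points, and with single libraries left out the share of listed TPM differed by -3.83 to -3.08 points.

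With the replicate number as a block 9 mitochondrial genes were called lower (5.40% of all tested genes), 9 of the 77 nuclear subunits were called higher (5.96%), and the nuclear partner counts were 11 higher and 1 lower. Whether the numbers pair the libraries by design is unknown. Same-numbered WT and PIM1+/- libraries had correlations of -0.136, 0.0320, -0.0332 and -0.0711 in their deviations from the genotype means. No library correlated best with its own number. Such correlations cannot show whether the libraries were paired when made. Depth is unknown, so no counting error can be given.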

Other observations

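Lists of epithelial cell types showed mixed calls beside the mitochondrial difference. Of 10 general epithelial markers 6 rose and 1 fell by limma, beside 8.93% of all tested genes that rose and 8.54% that fell. Among 10 markers of absorptive colonocytes 4 rose and 1 fell, 5 had a negative log2 fold change, and the median was -0.02. Their summed TPM was 11120 to 15240 in WT and 17320 to 21280 in PIM1+/-, and 91.8% of that difference was Car1, a carbonic anhydrase, with means of 7135 and 12859 TPM. Goblet cells, which secrete mucus, had 10 markers in the list, of which limma called 4 higher and 3 lower. Their sums were 16010 to 18210 TPM in WT and 21780 to 30650 TPM in PIM1+/-. Spink4 made up 52.4% of the difference of the means, at 2056 TPM in WT and 5844 TPM in PIM1+/-. Without Spink4 the goblet sums were 14062 to 16353 and 16765 to 22249 TPM. Of 9 tested markers of crypt stem and cycling cells 1 rose and 1 fell, close to the shares over all tested genes, and the sums overlapped, at 222 to 299 and 245 to 313 TPM. The part of these cell types in the mitochondrial values was not tested.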
